A study of Bos taurus with 21 samples.

Results

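miR-126 is the best known microRNA (miRNA) of the endothelium, the cell layer that lines blood vessels, and both strands of its hairpin, miR-126-5p and miR-126-3p, are described here in extracellular vesicles from cow serum. The members were bta-miR-126-5p and bta-miR-126-3p, the 2 rows of the deposited table for bovine miR-126, of 847 rows in all (298 with a known bovine miRNA name and 549 with a number only). Vesicles are membrane-bound particles that cells release into blood, and small RNA was sequenced from those of 7 cows with clinical mastitis, 7 cows with subclinical mastitis (udder inflammation without visible signs) and 7 healthy cows, the controls. The sources used here give no breed, age, stage of lactation, microbe or treatment. The comparisons address whether mastitis, in either form, changes the miRNAs that vesicles carry in blood.

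In mammals miR-126 is made from an intron of EGFL7, a gene of endothelial cells, and both arms can be loaded into the silencing complex. In human and mouse endothelium the 3p arm represses SPRED1 and PIK3R2, which restrain signalling from the receptor for vascular endothelial growth factor, and VCAM1, which lets leukocytes stick to the vessel wall. In mice the 5p arm represses Dlk1 and so favours endothelial proliferation. Platelets and blood progenitor cells also hold miR-126, so its presence in serum does not name a single source. In the RefSeq annotation of the ARS-UCD2.0 assembly the only bovine gene of this name, MIR126, lies within the span of EGFL7, next to AGPAT2.

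Signal in the table is reads per 1000000 of the known miRNA reads of a library, and is given below as a percent of those reads. The totals behind it ran from 1332 to 33776 known reads, with medians of 3259 in clinical, 15524 in subclinical and 2078 in healthy libraries. No pair of libraries agreed within sampling noise (lowest chi-square per degree of freedom 2.63, p = 2.1e-06). miR-126-5p was read 92 to 9478 times and miR-126-3p 6 to 268 times per library, so both were found in every cow. Intervals on single cows are exact (Clopper-Pearson) 95% binomial intervals. They cover counting error only, since PCR copies were not told apart.

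miR-126-5p was the most abundant known miRNA of these vesicles. Its mean signal over the 21 cows was 198435 ± 83156 (SD), against 165644 ± 45225 for let-7a-5p, the next in order, a member of the let-7 family found in nearly all tissues. It held the first rank among known miRNAs in 12 cows, namely 6 clinical, 4 subclinical and 2 healthy ones, and the second in 6 more. let-7a-5p came first in 1 clinical and 5 healthy cows, and miR-1246 in 3 subclinical cows. The lowest rank of miR-126-5p was 7, in subclinical 2.

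In clinical cows miR-126-5p took 16.4% of known reads at the lowest, 23.0% at the median and 37.4% at the highest. In subclinical cows the same values were 2.95%, 15.0% and 34.5%. In healthy cows they were 12.6%, 19.0% and 28.7%. The 3 groups overlapped, and the clinical and healthy ranges lay largely on top of each other. The highest cow stood 2.28-fold above the lowest in the clinical group, 11.7-fold in the subclinical group and 2.27-fold in the healthy group, so the subclinical cows were the more scattered. On the log2(signal) scale the SD was 0.38 in clinical, 1.23 in subclinical and 0.39 in healthy cows, and this difference in spread was not tested. Over the 27 known miRNAs read in every library the median of this SD was 0.54 in clinical, 0.66 in subclinical and 0.67 in healthy cows. Counting error is small beside this spread: in subclinical 2 the interval ran from 2.39 to 3.61%, and in subclinical 4 from 34.0 to 35.1%.

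**Figure D1:**
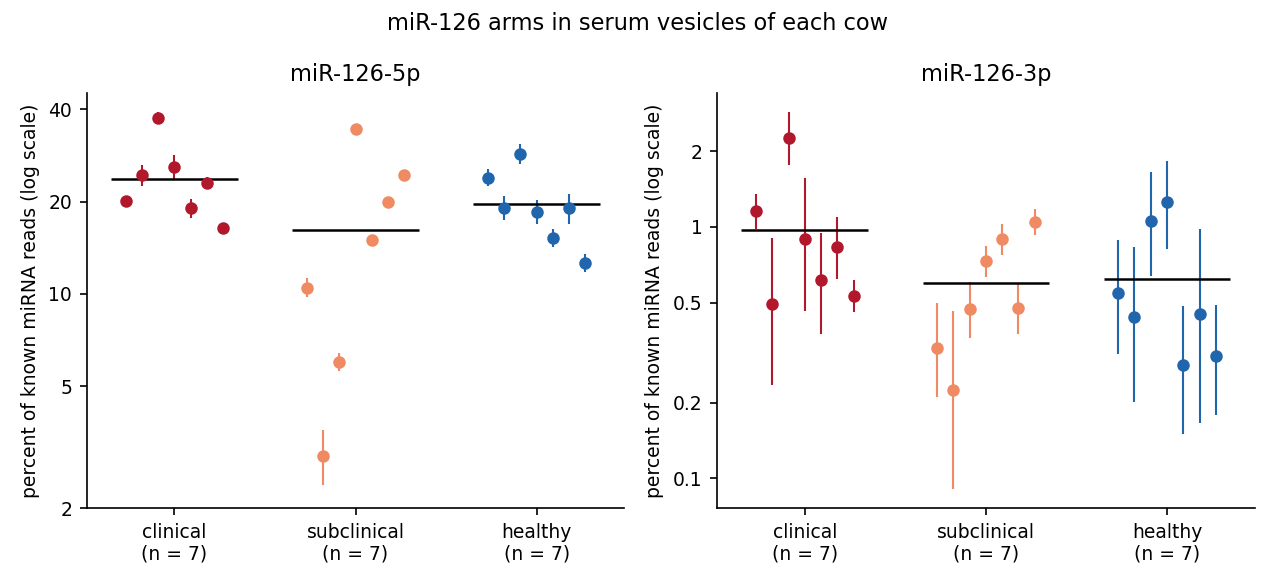
Percent of known miRNA reads (log axis) taken by miR-126-5p and by miR-126-3p in each cow, with exact 95% binomial intervals as bars and the group mean as a black line, n = 7 cows per group. The subclinical cows spread from 2.95 to 34.5% for the 5p arm, while the 3p arm lies between 0.225 and 2.26% in all groups.

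Mean shares of miR-126-5p were 23.8% ± 6.85 in clinical, 16.2% ± 11.0 in subclinical and 19.6% ± 5.33 in the healthy group (± SD, n = 7 each). From high to low the order was clinical, healthy, subclinical, and no neighbours in it differed beyond their spread. Group differences were tested with limma on log2(signal + 1) in 1 fit of all 21 libraries, over the 598 miRNAs that reached a signal of 1 in 7 or more libraries, with Benjamini-Hochberg adjustment over all of them. Neither arm passed in any comparison, and 1 of the 6 tests had an unadjusted p under 0.05. The share of all tested miRNAs with an adjusted p under 0.05 was 0% in clinical versus healthy (limma; 37 of 598, or 6.19%, at an unadjusted p under 0.05), 2.01% in subclinical versus healthy and 4.01% in clinical versus subclinical. Among the 131 known miRNAs tested it was 0%, 3.05% and 1.53%. At an unadjusted p under 0.05 the share of all tested miRNAs was 13.4% in subclinical versus healthy and 12.4% in clinical versus subclinical (limma). The 1 test of an arm with such a p belonged to the last of these comparisons.

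Between clinical and healthy cows, miR-126-5p had a fitted fold of 1.21 (95% interval 0.70 to 2.09; limma log2 change 0.28, SE 0.38, adjusted p = 0.901). Between subclinical and healthy cows the fold was 0.66 (0.38 to 1.13; limma log2 change −0.61, SE 0.38, adjusted p = 0.466). Between clinical and subclinical cows it was 1.85 (1.07 to 3.18; limma log2 change 0.88, SE 0.38, unadjusted p = 0.0294), which did not pass after adjustment (limma adjusted p = 0.283). The intervals against healthy cows include no change as well as changes in either direction, so equality of the groups was not shown. More miR-126 in a library can reflect more vesicles from one source or more miR-126 per vesicle, and these cannot be told apart in such data.

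The size of the differences depended on single cows. In clinical against healthy cows the log2 change of miR-126-5p was 0.16 without clinical 3 and 0.38 without healthy 3, the highest cow of each group (limma adjusted p = 0.971 and 0.864). Without subclinical 2, the lowest cow of its group, the log2 change of miR-126-5p was −0.26 against healthy cows (limma adjusted p = 0.711) and 0.54 for clinical against subclinical cows (limma adjusted p = 0.455). Without subclinical 4, the highest cow of its group, the same changes were −0.85 and 1.13 (limma adjusted p = 0.238 and 0.0789).

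The low subclinical cows were those with the most miR-1246, a short RNA that in humans can also be a fragment of the U2 small nuclear RNA. Clinical cows had 0.732 to 7.91%, subclinical cows 2.86 to 45.5% and healthy cows 1.54 to 9.41% of miR-1246. It took 31.2, 45.5 and 27.9% of known reads in subclinical 1, 2 and 3, where miR-126-5p took 10.5, 2.95 and 6.0%. In the other subclinical cows miR-1246 ran from 2.86 to 12.3% and miR-126-5p from 15.0 to 34.5%. Subclinical 1, 2 and 3 also had the fewest known reads of their group (6954, 3115 and 13150, against 15524 to 27453). A high share of miR-1246 and a depth low for their group thus cannot be told apart in these cows. Subclinical 1 and 3 were still deeper than every healthy library (1332 to 5550 known reads). Since all values are shares of 1 total, a large share of miR-1246 lowers every other share. Measured as a percent of known reads other than miR-1246, miR-126-5p was 15.2, 5.42 and 8.33% in subclinical 1, 2 and 3. Subclinical 2 and 3 thus stayed below the lowest clinical cow (16.6%) and the lowest healthy cow (13.2%) on this measure too, while subclinical 1 lay within the healthy range.

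**Figure D2:**
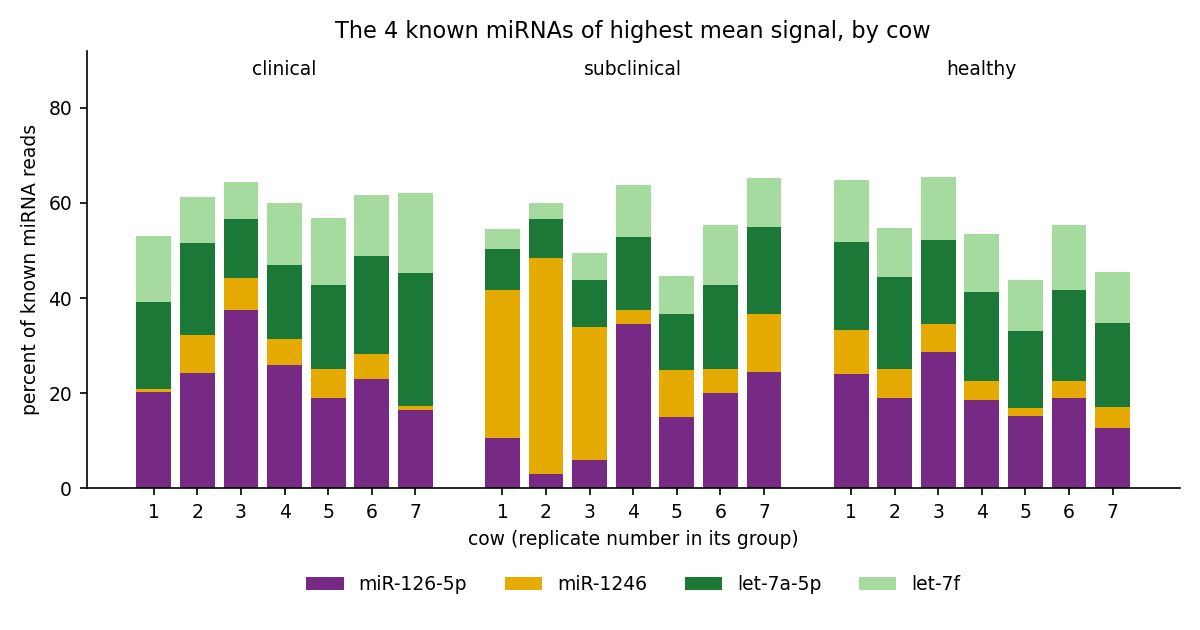
Percent of known miRNA reads taken in each cow by the 4 known miRNAs of highest mean signal, stacked, with cows numbered within their group. miR-1246 takes 27.9 to 45.5% in subclinical 1 to 3, the cows with the least miR-126-5p.

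On this scale without miR-1246, the subclinical against healthy log2 change of miR-126-5p was −0.34 (limma adjusted p = 0.639), and clinical against subclinical it was 0.62 (limma adjusted p = 0.438). Group means were 25.1% ± 7.69 in clinical, 18.6% ± 10.6 in subclinical and 20.7% ± 5.97 in the healthy group (± SD, n = 7 each).

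miR-126-3p, the minor arm here, ranked between 7 and 42 among known miRNAs. By its mean signal of 7282 ± 4636 (SD, 21 cows) it stood between miR-151-3p (8168 ± 2847) and miR-92a (6808 ± 4234), which restrains vessel growth in mice, and neither neighbour differed from it by more than the SD. Clinical cows had 0.491% of known reads at the lowest, 0.83% at the median and 2.26% at the highest. Subclinical cows had 0.225, 0.477 and 1.05%, and healthy cows 0.283, 0.45 and 1.25%. The groups overlapped, and a single cow, clinical 3, lay above all others.

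Group means of miR-126-3p were 0.968% ± 0.615 in clinical, 0.597% ± 0.303 in subclinical and 0.619% ± 0.381 in the healthy group (± SD, n = 7 each). The fitted fold was 1.59 between clinical and healthy cows (95% interval 0.89 to 2.82; limma log2 change 0.66, SE 0.40, adjusted p = 0.827). It was 0.99 between subclinical and healthy cows (0.56 to 1.76; limma log2 change −0.02, SE 0.40, adjusted p = 0.992) and 1.60 between clinical and subclinical cows (0.90 to 2.85; limma log2 change 0.68, SE 0.40, adjusted p = 0.515). Depth limits this arm: healthy libraries held 6 to 26 reads of it, and in healthy 6 the interval on its share ran from 0.165 to 0.978%.

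The scale of the table mattered for comparisons with subclinical cows, whose libraries were rich in known miRNAs. When reads of known and numbered rows were put on 1 scale, the subclinical against healthy log2 change was 1.21 for miR-126-5p (limma adjusted p = 0.224) and 1.80 for miR-126-3p (limma unadjusted p = 0.0100, adjusted p = 0.0980). Clinical against subclinical, the changes were then −0.81 and −1.01 (limma adjusted p = 0.556 and 0.505). All 4 of these changes thus had the opposite sign to those on the deposited scale. Clinical against healthy kept its sign, at 0.41 and 0.79 (limma adjusted p = 0.946 and 0.874). The median log2 change of the 131 tested known miRNAs was 2.23 in subclinical against healthy cows and −1.64 in clinical against subclinical cows on the deposited scale, and 2.78 and −2.13 on 1 scale. With a pseudocount of 1, both arms stood below the median known miRNA in subclinical against healthy cows on both scales. Clinical against subclinical, they stood above it. Healthy libraries held 59 to 121 known miRNAs above 0 and subclinical ones 88 to 171, so values of 0 enter these medians. Both arms of miR-126 were read in every cow, so their place beside the medians does not show a change of their own. The medians depend on the pseudocount: with 1000 in place of 1 they were 0.08 and −0.08 on the deposited scale.

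**Figure D3:**
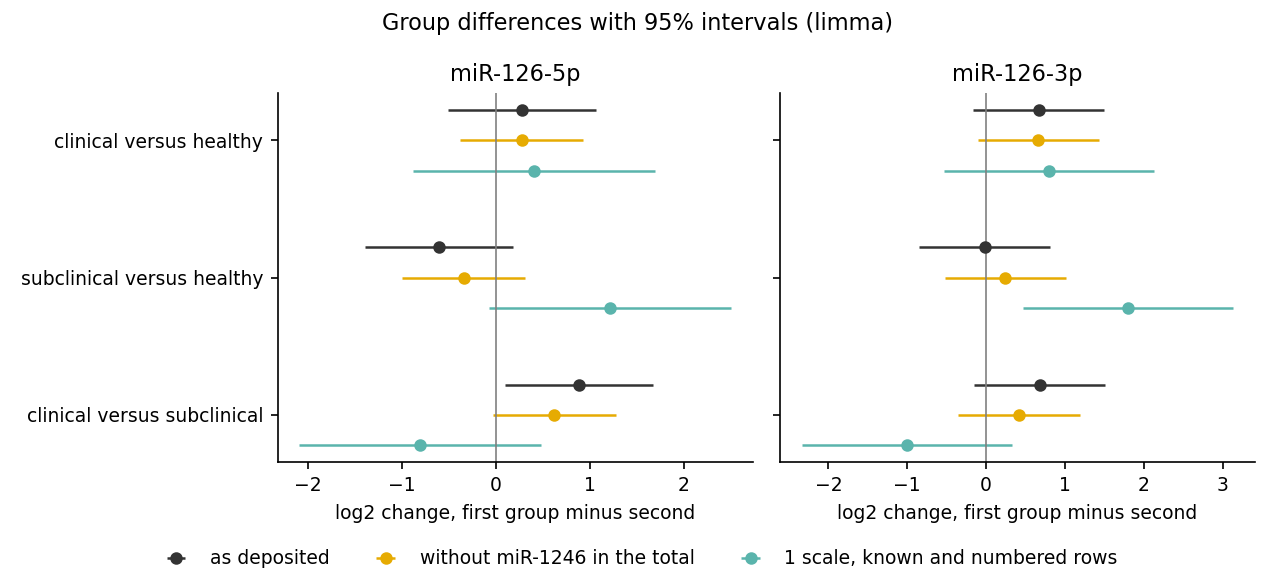
log2 changes of both arms in the 3 comparisons, with the first-named group minus the second, and 95% intervals from limma, on the deposited scale, with miR-1246 taken out of the known total, and with known and numbered rows on 1 scale. Subclinical against healthy, the 5p arm moves from −0.61 on the deposited scale to 1.21 on 1 scale.

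Depth moved with miR-126 within the subclinical cows. Across these 7 cows, the log2 of known reads and the log2 signal had r = 0.88 and rho = 0.93 for the 5p arm (exact permutation p = 0.00972 and 0.00675, adjusted p = 0.0519 and 0.0540 over 16 relations). For the 3p arm they were r = 0.94 and rho = 0.89 (exact permutation p = 0.00139 and 0.0123, adjusted p = 0.0111 and 0.0656). Without the 2 cows farthest from the median depth, r was 0.83 and 0.85. In clinical cows the 5p arm went the other way, with r = −0.64 and rho = −0.79 (exact permutation p = 0.124 and 0.0480, adjusted p = 0.249 and 0.154), and r was −0.16 without the 2 farthest cows. The 3p arm had r = −0.14 and rho = −0.07 there (exact permutation p = 0.748 and 0.906). In healthy cows r was −0.66 and rho −0.64 for 5p (exact permutation p = 0.105 and 0.139), and r was −0.60 and rho −0.50 for 3p (exact permutation p = 0.153 and 0.267). Over all 21 cows r was −0.07 and 0.04 (permutation p = 0.780 and 0.864). Subclinical 1, 2 and 3, with the least depth of their group, were also the cows with the most miR-1246, so these cannot be told apart. The part of depth in the group differences was not tested.

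The 5p arm held nearly all miR-126 reads in every cow. Of 41022 reads of either arm, 39591 were 5p, a share of 96.5% or 27.7 reads of 5p per read of 3p. The exact 95% interval of this summed share, 96.3 to 96.7%, covers counting error only and not the spread between cows. The shares of single cows had a mean of 96.3% ± 1.76 (SD, n = 21). In clinical cows the share was 94.3% at the lowest, 96.7% at the median and 98.0% at the highest. Subclinical cows had 92.7, 95.9 and 97.9%, and healthy cows 93.7, 97.7 and 98.2%. The ranges of the groups overlapped over most of their length. As a ratio per cow, 5p reads outnumbered 3p reads 16.6- to 49.5-fold in clinical, 12.7- to 47.4-fold in subclinical and 14.8- to 53.9-fold in healthy cows.

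Mean 5p shares were 96.3% ± 1.33 in clinical, 95.5% ± 2.18 in subclinical and 97.0% ± 1.57 in the healthy group (± SD, n = 7 each). The difference was −0.76 points between clinical and healthy cows (two-sided exact permutation p = 0.332), −1.53 points between subclinical and healthy cows (exact permutation p = 0.146) and 0.77 points between clinical and subclinical cows (exact permutation p = 0.425). None passed, with an adjusted p of 0.425 for each over the 3 comparisons (exact permutation). Summed over the reads of a group, the share was 96.1% in clinical, 96.6% in subclinical and 97.2% in healthy cows, so that clinical then stood 0.52 points below subclinical. Single cows moved these differences too: clinical minus subclinical was 0.31 points without subclinical 3 and 1.17 points without subclinical 4. Leaving out 1 cow, the difference ran from −1.32 to −0.43 points in clinical against healthy and from −2.08 to −1.06 points in subclinical against healthy.

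The 5p share of single libraries differed by more than the counting error that these intervals cover. The interval of 9 cows left out the share of 96.5% over the summed reads of all cows, in which deep libraries weigh most. It lay above in subclinical 4 and 6 and healthy 5, and below in clinical 1 and 3, subclinical 3, 5 and 7 and healthy 4. Subclinical 4, with 9478 reads of 5p and 200 of 3p, had a share of 97.9% (exact interval 97.6 to 98.2%). Subclinical 3, with 789 and 62, had 92.7% (90.8 to 94.4%). Such cows occurred in each group and on both sides within the subclinical and healthy groups. The intervals were not adjusted for their number and do not allow for PCR copies. With a single library per cow, a library effect cannot be told apart from the cow.

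**Figure D4:**
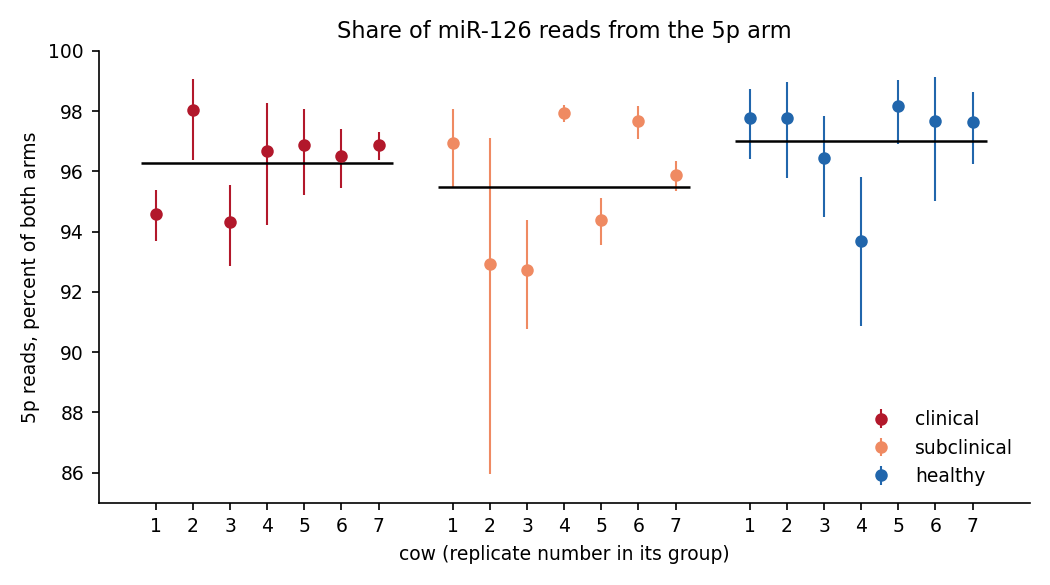
Share of miR-126 reads that came from the 5p arm in each cow, with exact 95% binomial intervals as bars and the group mean as a black line. The axis does not start at 0. Shares run from 92.7 to 98.2%, and the widest interval belongs to subclinical 2, which had 99 reads of both arms.

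Both arms went up and down together across cows. Over the 21 cows the log2 signals of 5p and 3p had r = 0.67 (permutation p = 0.00071, adjusted p = 0.0111 over 16 relations) and rho = 0.66 (permutation p = 0.00142, adjusted p = 0.0227). Without subclinical 2 and 3, the cows farthest from the median of 5p, r was 0.67. Within groups r was 0.75 in clinical, 0.79 in subclinical and 0.68 in healthy cows (exact permutation p = 0.0573, 0.0359 and 0.0889, adjusted p = 0.183, 0.144 and 0.237). The clinical value rested on clinical 3 and clinical 7, without which r was −0.10. Without their 2 farthest cows r was 0.58 in subclinical and 0.35 in healthy cows. Both arms share a library, its depth and 1 total, which also ties their values.

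Among the 60 other known miRNAs found in at least 14 libraries, each arm was most like the other by Spearman's rho of the signal pooled over the 21 cows. Next after it came miR-1468 (rho 0.58 with 5p and 0.52 with 3p) and miR-11987 (0.55 and 0.40), then let-7c (0.44) and let-7f (0.32) for 5p, and let-7g (0.35) and let-7f (0.32) for 3p. These are descriptions over points that share libraries and totals. Within groups the order differed. The rho of the arms with each other was 0.50 in clinical, 0.79 in subclinical and 0.57 in healthy cows. For miR-1468 the rho with 5p was 0.07 in clinical, 0.96 in subclinical and 0.11 in healthy cows, so its pooled value was carried by the subclinical cows, and its rho with 3p was 0.64, 0.82 and 0.46. For miR-11987 the rho with 5p was 0.93 in clinical, 0.32 in subclinical and 0.93 in healthy cows, above that of 3p in the clinical and healthy groups. For let-7f the rho with 5p was −0.89 within clinical, 0.86 within subclinical and 0.46 within healthy cows, opposite orders within the pooled value. At the other end stood miR-1306, picked after its values were seen, with rho −0.74 to 5p and −0.54 to 3p.

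The table held 18 known miRNAs with a row for each arm, and miR-126 was the one for which both arms were read in every cow. Of the 12 pairs with at least 50 reads, 5p was the major arm in 5 and 3p in 7. After miR-126 the pairs of highest signal were let-7a (99.8% 5p), miR-423 (95.7% 5p), miR-10174 (0.179% 5p) and miR-23b (0.129% 5p). miR-423 had a pooled share near that of miR-126 but ranged from 79.6 to 100% between cows, on 3780 reads.

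Other miRNAs of endothelium and vessel growth were taken from a list of 16 names, of which 13 were in the table, in 17 rows. Of its 11 rows tested, 0 rose and 0 fell in any of the 3 comparisons (limma, adjusted p under 0.05), where 0% of all tested miRNAs passed in clinical versus healthy. In subclinical versus healthy 1.51% of all tested miRNAs were higher and 0.502% lower, and in clinical versus subclinical 0.167% were higher and 3.85% lower. At an unadjusted p under 0.05 the list had 2, 3 and 0 rows in clinical versus healthy, subclinical versus healthy and clinical versus subclinical (limma). Of all tested miRNAs, 6.19%, 13.4% and 12.4% had such a p in these comparisons. The summed level of the list was 8.24 to 12.3% of known reads in clinical, 6.07 to 12.7% in subclinical and 6.86 to 12.7% in healthy cows. Its most abundant members were miR-23a and miR-23b-3p, of the miR-23, miR-27 and miR-24 clusters that act in vessel growth. miR-23a had a mean signal of 55311 ± 9937 in clinical, 47806 ± 10545 in subclinical and 56214 ± 11750 in the healthy group (± SD, n = 7 each). These means differed by less than any of the SDs. The median log2 change of the list was 1.15 in clinical against healthy, 3.22 in subclinical against healthy and −0.23 in clinical against subclinical cows, beside 0.19, 2.23 and −1.64 for all 131 known miRNAs tested. These medians are for a pseudocount of 1, on which the median of known miRNAs depends as given above, and the summed level of the list averaged 9.83% in clinical, 9.19% in subclinical and 9.77% in healthy cows.

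Markers of other sources of serum miRNA were measured beside miR-126. The platelet list (15 rows, led by miR-223 and miR-21-5p) summed to 4.16 to 9.37% of known reads in clinical, 4.72 to 12.3% in subclinical and 4.0 to 10.4% in healthy cows. The leukocyte list (7 rows, led by miR-223 of neutrophils and miR-150 of lymphocytes) summed to 3.41 to 7.25% in clinical, 3.95 to 8.89% in subclinical and 2.22 to 7.52% in healthy cows. The red cell list (5 rows, led by miR-486 and miR-451) summed to 0.743 to 1.27% in clinical, 0.514 to 2.66% in subclinical and 0.626 to 1.52% in healthy cows. Levels of these 3 lists overlapped between all groups, and of their 11, 5 and 4 rows tested none passed in any comparison (limma). At an unadjusted p under 0.05 the platelet list had 1, 3 and 2 rows in clinical versus healthy, subclinical versus healthy and clinical versus subclinical, and the leukocyte and red cell lists had 0. Of all tested miRNAs, 6.19%, 13.4% and 12.4% had such a p in these comparisons (limma). miR-223 is on both the platelet and the leukocyte list, and miR-151 and miR-24 are on both the endothelial and the platelet list.

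The liver list (5 rows, led by miR-122 and miR-192) summed to 0.0163 to 0.307% of known reads in clinical, 0.215 to 3.29% in subclinical and 0.0487 to 1.05% in healthy cows. Of its 5 rows tested, miR-122, the main miRNA of hepatocytes, was lower in clinical than in subclinical cows at an adjusted p under 0.05 (limma), and the other 4 did not pass. In this comparison 3.85% of all tested miRNAs were lower at that threshold. With known miRNAs fitted alone, 0 miRNAs were called in it. miR-122 was read in 13 of the 21 libraries. Its mean signal was 736 ± 1178 in clinical, 11473 ± 9982 in subclinical and 1090 ± 1761 in healthy libraries (SD, n = 7 each). None of the 5 passed against healthy cows, where 0 rows in clinical and 3 in subclinical cows had an unadjusted p under 0.05 (limma). In clinical versus subclinical cows 4 of the 5 rows had such a p (limma), beside 12.4% of all tested miRNAs. Median log2 changes follow for clinical versus healthy, subclinical versus healthy and clinical versus subclinical, in this order. They were 0.36, 3.42 and −0.57 for the platelet list and 0.11, 0.37 and −0.27 for the leukocyte list. For the red cell list they were −1.06, 0.29 and −1.37, and for the liver list −0.43, 4.42 and −5.49. All 131 known miRNAs tested had 0.19, 2.23 and −1.64. These medians are for a pseudocount of 1, on which the median of known miRNAs depends as given above. The summed level of the platelet list averaged 6.70% in clinical, 7.86% in subclinical and 6.78% in healthy cows. The smooth muscle list (5 rows, led by miR-1 and miR-145) stayed at or under 0.344% in clinical, 0.175% in subclinical and 0.261% in healthy cows, with libraries at 0 in each group, and 0 of its 3 rows tested passed (limma; 0, 0 and 1 at an unadjusted p under 0.05). Of all tested miRNAs, 6.19%, 13.4% and 12.4% had an unadjusted p under 0.05 in these comparisons, in the same order (limma). No row of any list was at 0 in every library. The part of these sources in the level of miR-126 was not tested.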

How the data were processed

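Small RNA of serum vesicles was sequenced from 7 cows per group. Per the labels' protocols, the miRNeasy Mini kit served for extraction and Illumina's TruSeq small RNA kit for library construction. Bowtie, edgeR and the ARS-UCD1.2 build are named without a role, per the submitters' processing notes. The sources used here say nothing of vesicle isolation, trimming or counting. The authors deposited a signal in reads per 1000000, scaled separately for known and numbered rows, whose values sum to more than 1000000 per sample (by 2.06 to 5.39% for known rows). All 10115 values above 0 were whole multiples of 1 step per library and kind of row (tolerance 0.05 reads), which gave the read numbers and totals used for shares and intervals.

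Group differences were tested with limma 3.58.1 in R 4.3.3 (intensity trend, two-sided) on log2(signal + 1), for rows that reached a signal of 1 in 7 or more libraries, with 18 residual degrees of freedom. The planned test assumed TPM on 1 scale and was kept, since it can be run on any non-negative normalized value. Its intensity trend pools known and numbered rows, so the 2 scales do enter the SE. With known miRNAs fitted alone the SE was 0.34 for miR-126-5p and 0.50 for miR-126-3p, against 0.38 and 0.40 in the main fit. The planned count tests were not run, because each column holds 2 scales. Arm shares were compared by exact permutation in scipy 1.17.1. The fit was run on simulated data with planted changes far larger than those fitted for miR-126. That run does not show whether changes as small as these would be found. The table's replicate 7 columns carry other numbers than the labels' titles, and were assigned by the labels' descriptions. Other miRNAs named are the 5 arm pairs of highest signal, the 5 most like each arm, the 2 most abundant of each list and the neighbours in rank, besides miR-1246, miR-122 and miR-1306, named after their values were seen. Members and lists were chosen with earlier results of these data known.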

Additional observations from a re-analysis of the deposited data

Results flagged for a closer look

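Dixon's test at the 95% level was run on 9 groups of 7 values (the signal of each arm and the 5p share). These values were not log-transformed, unlike the signals in the limma fits. By chance the test marks about 1 in 20 groups, and here a single cow stood apart from its group in 2 cases. The first was miR-126-3p in clinical 3, with a signal of 22601 (69 reads), in the cow that also had the highest miR-126-5p of its group. Without clinical 3 the log2 change of miR-126-3p was 0.43 in clinical against healthy cows and 0.45 in clinical against subclinical cows (limma adjusted p = 0.864 and 0.718). The second was the 5p share of healthy 4, at 93.7% (385 reads of 5p and 26 of 3p). Without healthy 4 the 5p share differed by −1.32 points in clinical against healthy cows (exact permutation p = 0.0338) and by −2.08 points in subclinical against healthy cows (exact permutation p = 0.0455). Neither passed after adjustment (exact permutation, adjusted p = 0.0682 for both).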

How the results depend on the processing

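Of 252 values of the arms and the 5p share under other settings, 0 had an adjusted p under 0.05 (limma or exact permutation), while 30 of 192 values of an arm had an unadjusted p under 0.05. Most of these 30 were refits, on largely the same cows, of miR-126-5p in clinical against subclinical cows (limma unadjusted p = 0.0294 in the main fit). Shares summed over the reads of a group have no p. The lowest adjusted p was 0.0789 for an arm (miR-126-5p, clinical against subclinical, without subclinical 4) and 0.0682 for the share. The sign turned in 14 of the 252 values. For miR-126-3p in subclinical against healthy cows the log2 change was 0.26 with median-ratio scaling, 0.13 without the 3 libraries under 2000 known reads, 0.24 without miR-1246 in the total and 1.80 on 1 scale. It ran from −0.18 to 0.19 when 1 library was left out. On 1 scale miR-126-5p was 1.21 in subclinical against healthy cows, and the clinical against subclinical changes were −0.81 for 5p and −1.01 for 3p. The last 2 settings were chosen after seeing the data, and the cause was not tested. The 5p share differed by −0.516 points in clinical against subclinical cows when reads were summed over a group. Leaving out 1 library gave 0.16 to 0.38 (clinical against healthy), −0.85 to −0.26 (subclinical against healthy) and 0.54 to 1.13 (clinical against subclinical) for 5p, 0.43 to 0.87 and 0.45 to 0.85 for 3p in the comparisons of clinical with healthy and with subclinical cows, and 0.305 to 1.17 points for the share in clinical against subclinical cows. miRNAs called in subclinical against healthy cows numbered 12, and 2 with a pseudocount of 1000, 2 with known miRNAs alone, 6 with median-ratio scaling, 0 without the libraries under 2000 known reads, 23 without the replicate 7 libraries, 6 without miR-1246 and 6 to 26 without 1 library. In clinical against subclinical cows 24 were called, and 8 with a pseudocount of 1000, 0 with known miRNAs alone and 14 to 26 without 1 library. Samples share only a number across groups (3 of 21 same-numbered pairs correlated above 0.1, and in 4 the same-numbered sample was the closest). With the number as a replicate block, adjusted p ran from 0.299 to 0.911 for 5p (limma), and 0, 8 and 23 miRNAs were called in clinical against healthy, subclinical against healthy and clinical against subclinical cows. The planned edgeR and DESeq2 alternatives were not run. Depth limits miR-126-3p most, with 6 to 26 reads in healthy libraries.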
